A study of Mus musculus with 20 samples.

Results

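The genes described here are the cyclins, the cyclin-dependent kinases (CDKs) and the CDK inhibitors of mouse embryonic stem cells (ESCs), measured in an RNA immunoprecipitation and sequencing (RIP-Seq) experiment on the dioxygenases Tet1 and Tet2. They were chosen by symbol (Ccn, Cdk or Cdkn followed by the letters and digits of the family) and came to 51 of the 23284 genes in the files: 27 with cyclin symbols, 18 CDKs and 6 inhibitors. The symbol rule also took in Ccndbp1, which encodes a cyclin D-binding protein and not a cyclin. The 51 genes were sorted into 14 cell-cycle cyclins and CDKs, 13 transcriptional cyclins and CDKs, 6 inhibitors and 18 others.

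The 20 libraries came from 3 lines of otherwise wild-type ESCs kept in serum and leukemia inhibitory factor. Each line carried a Flag, HA and Twin-Strep tag at the C-terminus of an endogenous protein, put in by CRISPR-Cas9n from picked clones: Tet1 (Tet1-KI, 2 replicates), Tet2 (Tet2-KI, 4 replicates) or a Tet2 without its RNA-binding domain (Tet2dRBD-KI, here Tet2ΔRBD, 4 replicates). In each replicate, RNA recovered from cytoplasmic extract with an anti-Flag antibody (IP) was set against total RNA (input), and the comparison asks which transcripts were recovered with the tagged protein and whether this depended on the RNA-binding domain. The labels name no separate cultures, so that the p-values measure the spread between these samples, which may be technical, and no IgG or untagged control was analysed here.

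A CDK is inactive until a cyclin binds it, and the level of the cell-cycle cyclins rises and falls with the phase of division. Cyclins D bind Cdk4 and Cdk6, cyclins E bind Cdk2, cyclin A binds Cdk2 and Cdk1 and cyclins B bind Cdk1. These complexes act in turn from entry into the cycle to mitosis. The Cdkn1 and Cdkn2 genes encode inhibitors of some of these kinases. Another branch of the family works at RNA polymerase II: Cdk7 with cyclin H, Cdk8 and Cdk19 with cyclin C, Cdk9 with cyclins T and Cdk12 and Cdk13 with cyclin K phosphorylate the polymerase or act in the Mediator complex, and the cyclins L take part in splicing. ESCs are known for a short first gap phase and for high cyclin E activity.

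Pyrimidine-rich motifs were one of the questions of the study. The longest uninterrupted run of C and T is therefore shown for Ccnl1, Cdk13 and Ccng1, which were above input in all 10 pairs and passed the test in Tet2, and for Ccnc, Cdkn1c and Ccnk, which were lower in both Tet2 and Tet2ΔRBD. Capitals mark the run, read 5′ to 3′ on the transcript strand from the gene's transcript with the longest coding sequence (annotation gencode vM1, build NCBIM37, mm9):

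Ccnl1: gccgccggcaTCCTCCTCCggctgccgca

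Cdk13: agaaaaCCTTCCCTCTTCCTTTCaattct

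Ccng1: ttaaaaacaaTTTTTTCCTTaatgcatggc

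Ccnc: tttcagaTTTTTTTTTTTTTTTTgctttat

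Cdkn1c: ctccagggtgTCCCTCTCCaaacgtggct

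Ccnk: caggctaCCCTCCCCCTCCCCCTacctaca

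The runs of Ccnl1, Cdkn1c and Ccnk lie in the coding sequence and those of Cdk13, Ccng1 and Ccnc in the 3′ UTR. The run of Ccnl1 was 9 bases long and that of Ccng1 10 bases, and 97.7% of the transcripts of like length held a run at least as long as that of Ccnl1. Ccni, which was lower in IP in every line, had the longest run of the 51 members, 54 bases in its 5′ UTR. Cdkn1b and Ccndbp1, also lower in both Tet2 and Tet2ΔRBD, had runs of 23 bases in the 3′ UTR and 11 bases in the coding sequence. The letters TCTCTCTC, searched on the transcript strand only, occurred in 7 of the 51 members (13.7%: Ccnd2, Ccnh, Ccnyl1, Cdk2, Cdk7, Cdk15 and Cdkn2c) and in 10.2% of all 22590 genes with a protein-coding transcript. Spearman correlations with the mean log2(IP/input) were taken over the 46 members with a mean input of at least 1 TPM (transcripts scaled for length and for the total of the library). With the length of the longest run they were -0.11 in Tet2, -0.14 in Tet2ΔRBD and -0.28 in Tet1. With the effective length of the transcript they were 0.23, 0.28 and -0.04 in the same order. These are descriptions across genes, which share their libraries, and the data count exons of spliced transcripts only. The runs were read from gencode transcripts, while the levels were quantified on RefSeq transcripts, which can differ. The run of Ccnc starts at base 2508, beyond its mean effective length of 1860 bases. That of Cdkn1b starts at base 4152, against 2337 bases. Such runs may lie outside the quantified sequence, which also limits the correlations with run length.

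The input libraries showed which of these genes the ESCs expressed (plot of input levels). Of the 51 members, 10 had a mean input of at least 100 TPM, 23 lay between 10 and 100 TPM, 13 between 1 and 10 TPM and 5 under 1 TPM. The cell-cycle genes had a median of 97.5 TPM, the inhibitors 18.5 TPM, the other members 18.0 TPM and the transcriptional genes 12.4 TPM. In these bulk samples, fewer cells of a kind and less RNA per cell cannot be told apart.

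**Figure D1:**
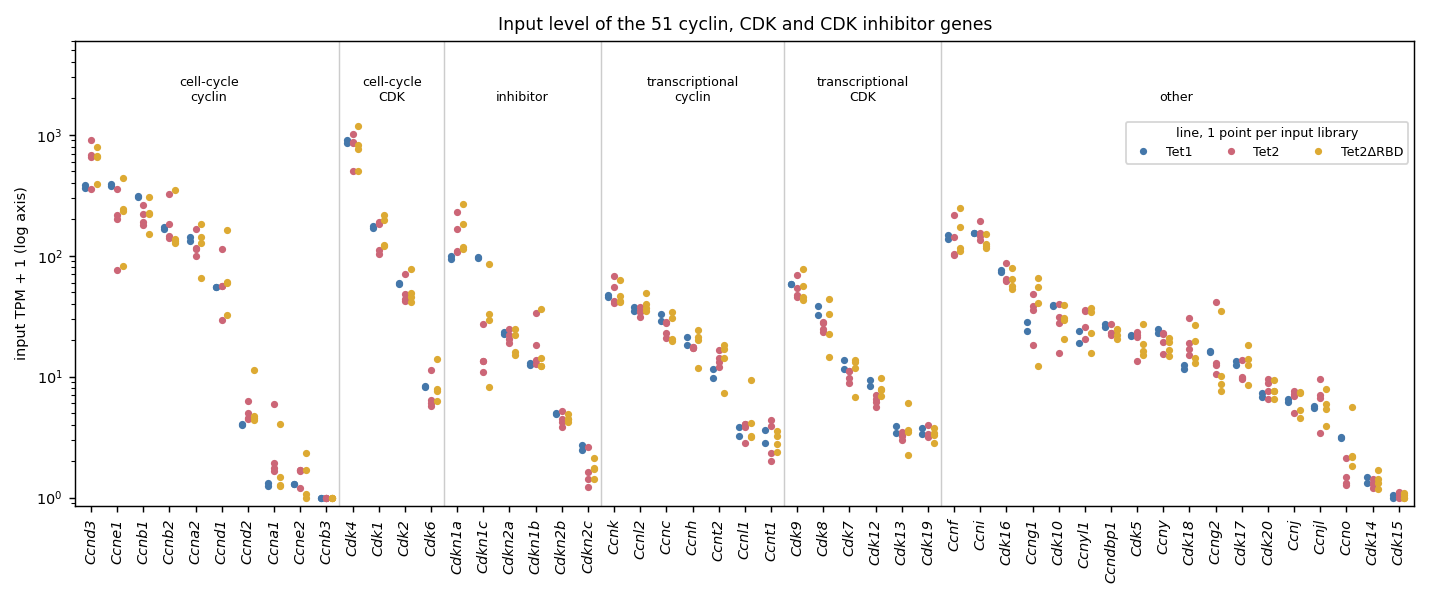
TPM + 1 on a log axis in each of the 10 input libraries (points, coloured by line) for the 51 members, ordered by class and by mean level. Cdk4, Ccnd3 and Ccne1 stand highest, Ccnb3 is at 0 TPM in every input, and the inputs of Cdkn1c run from 7.14 to 96.6 TPM.

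Cdk4, the kinase partner of the cyclins D, was the most abundant member, with 826 ± 207 TPM (SD over 10 inputs). Among the cyclins D, Ccnd3 was at 585 ± 199 TPM, Ccnd1 at 67.1 ± 40.9 TPM and Ccnd2 at 4.33 ± 2.19 TPM. Cdk6, the other partner of the cyclins D, was at 7.19 ± 2.64 TPM. Of the 2 genes for cyclin E, Ccne1 was at 261 ± 127 TPM while Ccne2 was at 0.493 ± 0.404 TPM, and of the genes for cyclin A, Ccna2 was at 128 ± 33.2 TPM and the germline-associated Ccna1 at 1.2 ± 1.58 TPM. The mitotic genes Ccnb1, Ccnb2 and Cdk1 were at 237 ± 56.5, 187 ± 81.1 and 159 ± 41.1 TPM. Cdkn1a was at 148 ± 61.0 TPM, the highest of the inhibitors, and Cdkn2c at 0.911 ± 0.536 TPM the lowest.

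Some members differed between replicate numbers in the same way in both Tet2 lines. Ccne1 input was 74.8 TPM in Tet2 replicate 1 and 81.5 TPM in Tet2ΔRBD replicate 1, against 200 to 353 TPM and 232 to 441 TPM in replicates 2 to 4. Ccnb2 went the other way, with 324 and 350.0 TPM in replicate 1 and 127 to 180 TPM in the remaining Tet2 and Tet2ΔRBD inputs. Cdkn1c, the imprinted inhibitor of the Cip/Kip family, was at 96.6 and 94.6 TPM in the 2 Tet1 inputs, at 9.83 to 26.3 TPM in the Tet2 inputs and at 7.14, 84.8, 28.6 and 32.1 TPM in Tet2ΔRBD replicates 1 to 4, so that the 2 Tet2 lines overlapped. Between the inputs of Tet2ΔRBD and Tet2, 0 of 49 members passed edgeR's quasi-likelihood test at an adjusted p of 0.05, as did 0% of all 13310 genes. At an unadjusted p under 0.05 there were 2 members (background 2.55% of all genes), Ccno (log2 difference 1.82 ± 0.61, SE) and Cdkn1c (1.33 ± 0.58), and DESeq2 and limma on log2(TPM + 1) also called no member.

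The libraries held between 21078995 and 37576638 expected counts, of which the members took 0.510% to 0.620%. All 8 pluripotency markers were present (summed level 13539 to 17340 TPM over the inputs), while the 5 feeder cell markers summed to 10.7 to 63.2 TPM, the 4 primitive endoderm markers to 8.46 to 98.1 TPM, the 3 neural markers to 11.5 to 25.6 TPM and the 3 mesoderm markers to 0.44 to 0.88 TPM; their part in the results was not tested. The tagged genes were transcribed in every input, Tet1 at 8.54 to 17.3 TPM and Tet2 at 2.49 to 9.21 TPM. Replicates 3 and 4 of Tet2 and of Tet2ΔRBD correlated at 0.992 to 0.998, and the Tet1 replicates at 0.996 to 0.997, against 0.908 to 0.967 between the other replicate numbers. One input stood apart from its nearest replicate: Tet2ΔRBD replicate 4 held 8.33 TPM of Ccnl1, 5.02 TPM of Cdk13 and 64.7 TPM of Ccng1, against 3.13, 2.65 and 40.0 TPM in replicate 3.

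The ratio of IP to input was tested with edgeR over 13710 genes, 49 of them members. Ccnb3 and Cdk15 fell below the filter of 1 CPM (count scaled to the library total) in 2 libraries. Each gene had 1 estimate of its spread over all 20 libraries. The SE and p-values in Tet1 thus also carry the spread of the Tet2 and Tet2ΔRBD pairs. In Tet2, 19 of the 49 members passed the test, where the background was 33.1% of all genes; 7 were higher in IP (background 14.6%) and 12 lower (background 18.5%). In Tet2ΔRBD, 10 members passed (background 19.5%), 3 higher (7.4%) and 7 lower (12.1%), and in Tet1, 3 members (5.9%), 1 higher (2.72%) and 2 lower (3.18%). These shares are near the background and are no result about the family. Of the calls, 8 were shared by Tet2 and Tet2ΔRBD, 8 of the 19 and 8 of the 10, and 2, Ccni and Cdkn1c, were made in all 3 lines. The share of all genes called in more than 1 line was not computed, so that this overlap is no result about the family.

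**Figure D2:**
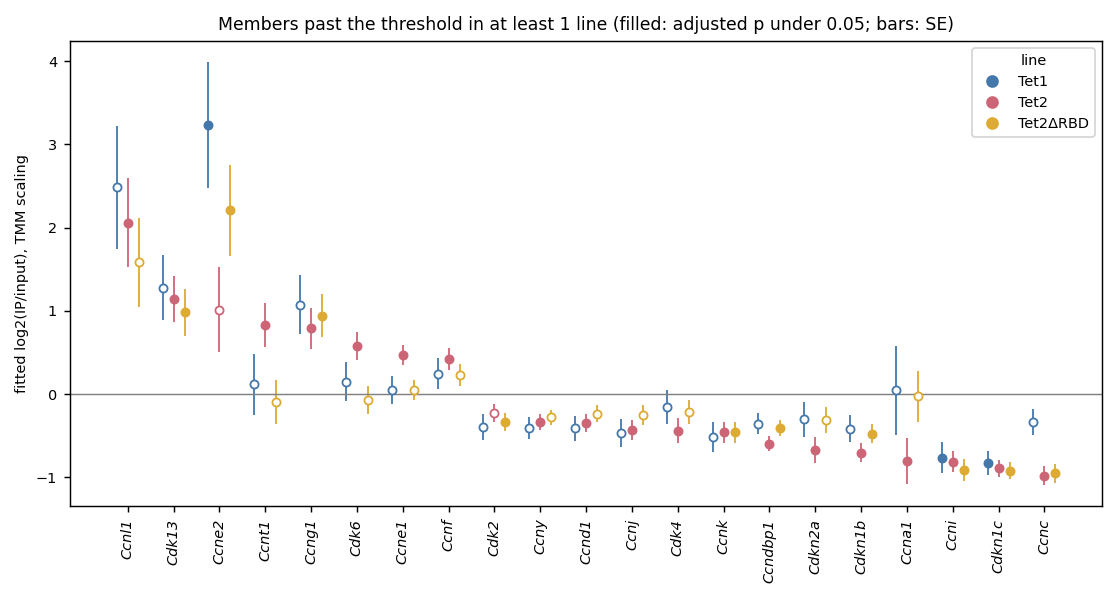
Fitted log2(IP/input) of the 21 members past an adjusted p of 0.05 in at least 1 line, ordered by the Tet2 value; points are the edgeR estimates, bars the SE, filled points the calls and colours the lines. Ccnl1, Cdk13, Ccne2 and Ccng1 lie above 0 in every line, and Ccni, Cdkn1c and Ccnc lie below 0 in every line.

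These calls depend on the scale. edgeR scales the libraries so that most genes centre near 0 (median over all genes 0.00 in Tet2), whereas on log2(TPM + 1) the median of all genes was 0.23 in Tet2, 0.19 in Tet2ΔRBD and 0.08 in Tet1. On that scale limma called 18 members in Tet2, 13 of them higher, and 12 of the 18 were among edgeR's 19. In Tet2ΔRBD it called 10 members, 7 of them higher (6 shared), and in Tet1 2 members, 1 higher. Of all 13710 genes it called 5894 in Tet2, 3814 in Tet2ΔRBD and 513 in Tet1, so that these counts are no result about the members. Of all genes called in Tet2, 44.2% were higher with edgeR and 80.9% with limma, in Tet2ΔRBD 37.9% and 83.6%, and in Tet1 46.1% and 76.2%. The 7 members lower in Tet2 by edgeR and not called by limma were Ccna1, Ccnd1, Ccnj, Ccnk, Ccny, Cdk4 and Cdkn2a, and their ratios are relative to the other genes and not to the input level itself. With replicates 3 and 4 merged into 1, the calls fell to 8 in Tet2, 6 in Tet2ΔRBD and 1 in Tet1 (3190, 1060 and 318 of 13610 genes). Without the block for each pair they fell to 3, 1 and 0 (375, 46 and 0 of 13710 genes). Leaving out each pair in turn, 7 of the 19 calls held every time in Tet2 (Ccnc, Ccndbp1, Ccni, Cdk13, Cdkn1b, Cdkn1c and Cdkn2a), 3 of the 10 in Tet2ΔRBD (Ccnc, Ccni and Cdkn1c) and 0 of the 3 in Tet1.

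Among the cell-cycle cyclins, 1 was higher and 2 were lower in Tet2 IP, and the other 6 that were tested did not pass. Ccne1, the cyclin E of these cells, was at 168, 578, 321 and 326 TPM in the 4 Tet2 IPs and at 74.8, 353, 218 and 200 TPM in their inputs. Every IP lay above its own input while the groups overlapped, since replicate 1 was low in both. Its fitted ratio was 0.47 ± 0.12 (log2, SE; adjusted p = 0.013, edgeR), and without Tet2 replicate 1 it was 0.41 and the call was lost (adjusted p = 0.057). In Tet2ΔRBD the fitted ratio of Ccne1 was 0.05 ± 0.12 and the IPs held 103, 416, 346 and 338 TPM, below the input in pair 2.

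Ccne2, the second gene for cyclin E, was the only cell-cycle cyclin called in Tet1. It was at 3.04 and 3.03 TPM in the Tet1 IPs against 0.29 TPM in each input, which rests on 146 and 153 counts against 14 and 14, and its fitted ratio was 3.23 ± 0.76 (adjusted p = 0.037). In Tet2ΔRBD the IPs were at 0.90, 0.72, 3.42 and 3.08 TPM and the inputs at 0, 0.06, 0.70 and 1.34 TPM (2.21 ± 0.54, adjusted p = 0.019). Each IP of these 2 lines thus lay above its own input, at levels of at most 3.42 TPM. In Tet2 the IPs were at 0.78, 0.67, 2.19 and 2.27 TPM and the inputs at 0.20, 0.68, 0.70 and 0.67 TPM, and the ratio did not pass (1.01 ± 0.51, adjusted p = 0.14). The Tet1 call was lost without either Tet1 replicate (adjusted p = 0.33 and 0.57), and without replicate 3 or 4 of Tet2 or replicate 3 of Tet2ΔRBD (0.057, 0.056 and 0.059), and the Tet2ΔRBD call without Tet2ΔRBD replicate 3 (adjusted p = 0.068).

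The 2 cyclins called lower in Tet2 were Ccnd1, a cyclin D, and Ccna1. Ccnd1 was at 25.5, 128, 52.7 and 51.6 TPM in IP and at 28.2, 114, 54.7 and 54.8 TPM in input, with a fitted ratio of -0.35 ± 0.10 (adjusted p = 0.026) that was -0.03 on log2(TPM + 1). The call was lost without Tet1 replicate 1 (adjusted p = 0.059) and without Tet2 replicate 1, 2 or 3 (0.184, 0.063 and 0.079). IP and input of Ccnd1 overlapped, and pair 2 ran against the others. Ccna1 was under 1 TPM in 3 of the 4 Tet2 pairs and at 5.51 TPM in IP and 4.97 TPM in input in replicate 1 (-0.80 ± 0.28, adjusted p = 0.047), and the call was lost in every fit with a pair left out (adjusted p = 0.0501 to 0.184) except those without Tet2ΔRBD replicate 2 or 4.

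Ccna2, Ccnb1 and Ccnb2, the cyclins of the later phases, did not pass edgeR's test in any line. Ccna2, which acts in DNA synthesis and mitosis, had Tet2 pair ratios of 0.22, 0.22, 0.01 and -0.12 (log2 of TPM + 1), Tet1 pair ratios of 0.04 and 0.05, and fitted ratios of -0.24, -0.15 and -0.11 in Tet2, Tet2ΔRBD and Tet1. Ccnb1, which drives mitosis with Cdk1, had fitted ratios of -0.18 ± 0.11, -0.05 ± 0.11 and -0.11 ± 0.15 in the same order, and none passed. On log2(TPM + 1) the mean pair ratios of Ccnb1 were 0.13, 0.22 and 0.04, so that the sign depended on the scale. Ccnb2 was at 621, 237, 212 and 216 TPM in the Tet2 IPs against 324, 180, 138 and 144 TPM in input (0.32 ± 0.12, adjusted p = 0.063, edgeR), a ratio that DESeq2 (adjusted p = 0.033) and limma on log2(TPM + 1) (adjusted p = 0.0015) called higher, while its Tet2ΔRBD pair ratios were 0.05, 0.20, 0.06 and 0.13. It was above input in all 10 pairs. Ccnd3 had fitted ratios of -0.11, -0.02 and -0.07, and Ccnd2 of 0.15, 0.30 and -0.27, in Tet2, Tet2ΔRBD and Tet1. Their mean pair ratios on log2(TPM + 1) were 0.21, 0.26 and 0.08 for Ccnd3 and 0.40, 0.49 and -0.09 for Ccnd2.

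Of the 4 cell-cycle CDKs, Cdk6 was higher and Cdk4 lower in Tet2 IP, and Cdk2 was lower in Tet2ΔRBD IP. Cdk6 was at 13.5, 15.4, 9.33 and 8.45 TPM in the Tet2 IPs and at 5.38, 10.5, 5.09 and 4.71 TPM in input, above input in each pair although the groups overlapped (0.58 ± 0.17, adjusted p = 0.023). Its Tet2ΔRBD pair ratios were 0.00, -0.28, 0.52 and 0.50, and the fitted value was -0.07 ± 0.17. The Tet2 call on Cdk6 was lost without Tet2 replicate 1, 3 or 4 (adjusted p = 0.091, 0.082 and 0.072). Cdk4 was at 402, 811, 933 and 898 TPM in the Tet2 IPs and at 503, 1021, 852 and 868 TPM in input (-0.44 ± 0.15, adjusted p = 0.039), with pairs 1 and 2 below input and pairs 3 and 4 above it. Without Tet2 replicate 1 the ratio of Cdk4 was -0.30 (adjusted p = 0.22), and without replicate 2 also -0.30 (adjusted p = 0.17), and the call was also lost without either Tet1 replicate or Tet2ΔRBD replicate 1 or 3 (adjusted p = 0.057 to 0.072). Cdk2, the partner of cyclins E and A, passed in Tet2ΔRBD by a narrow margin (-0.34 ± 0.11, adjusted p = 0.0498), and the call was lost in each of the 10 fits with a pair left out. The Tet2ΔRBD pair ratios of Cdk2 were 0.09, -0.56, 0.09 and 0.13, so that only pair 2 lay below input. Cdk1 had fitted ratios of -0.25, -0.19 and -0.17 in Tet2, Tet2ΔRBD and Tet1, and none passed. Its mean pair ratios on log2(TPM + 1) were 0.07, 0.09 and -0.02 in the same order.

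Of the 6 inhibitors, 3 were lower in Tet2 IP (background 18.5%), 0 were higher and 3 did not pass, with a median fitted ratio of -0.45. In Tet2ΔRBD 2 of the 6 were lower (background 12.1%), with a median of -0.18, and in Tet1 1 was (background 3.18%), with a median of -0.36. Cdkn1c was at 58.95 and 60.6 TPM in the Tet1 IPs against 96.6 and 94.6 TPM in input, and at 8.33, 18.2, 7.21 and 7.57 TPM in the Tet2 IPs against 12.4, 26.3, 9.83 and 12.5 TPM. In Tet2ΔRBD it was at 4.48, 42.3, 22.0 and 22.1 TPM in IP against 7.14, 84.8, 28.6 and 32.1 TPM in input. It was below input in all 10 pairs, and IP and input separated fully in Tet1 only. The fitted ratios were -0.83 ± 0.14, -0.89 ± 0.10 and -0.92 ± 0.10 in Tet1, Tet2 and Tet2ΔRBD (adjusted p = 0.020, 2.7e-04 and 5.3e-04), so that IP held about 0.54 times the input in Tet2 relative to other genes. The Tet1 call was lost without either Tet1 replicate (adjusted p = 0.29 and 0.57).

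Cdkn1b, of the same family, was at 22.1, 13.7, 9.73 and 9.84 TPM in the Tet2 IPs and at 32.7, 17.2, 12.6 and 11.8 TPM in input, below input in every pair (-0.71 ± 0.11, adjusted p = 0.0014). In Tet2ΔRBD its ratio was -0.48 ± 0.11 (adjusted p = 0.017), with pair 4 at 11.2 TPM on both sides and the call lost without Tet2ΔRBD replicate 1, 2 or 3 (adjusted p = 0.083, 0.069 and 0.073), and in Tet1 it was -0.41 ± 0.16 (adjusted p = 0.15). Cdkn2a, the locus of the Ink4a and Arf proteins, was lower in Tet2 (-0.67 ± 0.15, adjusted p = 0.0076) with 22.4, 10.4, 17.9 and 15.8 TPM in IP and 23.7, 18.1, 19.4 and 21.3 TPM in input. The adjusted p of Cdkn2a on log2(TPM + 1) was 0.057. Cdkn1a, a target of p53, did not pass in any line: its fitted ratios were -0.16 ± 0.12, -0.04 ± 0.12 and -0.23 ± 0.17 in Tet2, Tet2ΔRBD and Tet1, and its Tet2 pair ratios ran from 0.04 to 0.26. Cdkn2b and Cdkn2c did not pass either.

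**Figure D3:**
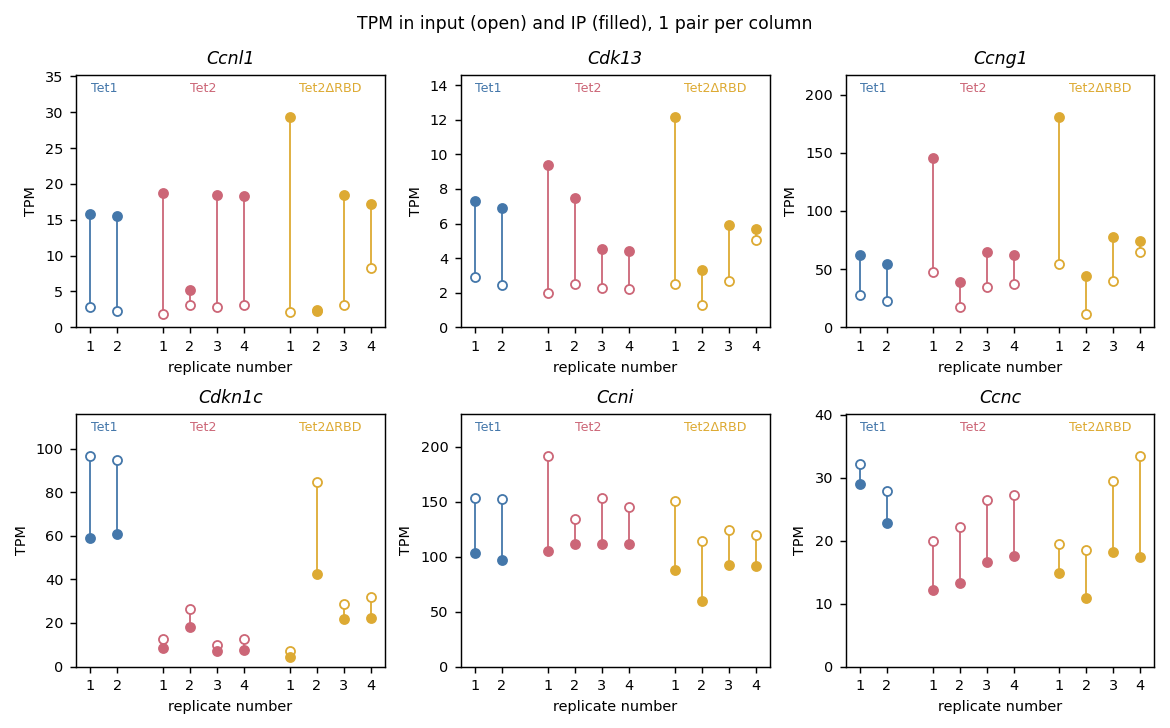
TPM in input (open circles) and IP (filled circles) of each pair, joined by a line, for 3 members recovered above input and 3 below it; the x axis gives the replicate number within each line. Ccnl1, Cdk13 and Ccng1 have the IP point above the input point in all 10 pairs, and Cdkn1c, Ccni and Ccnc have it below in all 10.

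The transcriptional class held both the highest and the lowest ratios in Tet2. Ccnl1 (cyclin L1, chr3:65750073-65762171, minus strand, mm9) was at 15.8 and 15.5 TPM in the Tet1 IPs against 2.86 and 2.21 TPM in input, and at 18.8, 5.19, 18.5 and 18.4 TPM in the Tet2 IPs against 1.85, 3.07, 2.82 and 3.05 TPM. In Tet2ΔRBD it was at 29.4, 2.43, 18.4 and 17.2 TPM in IP against 2.18, 2.24, 3.13 and 8.33 TPM in input. IP and input did not overlap in Tet1 and Tet2, and in Tet2ΔRBD replicate 2 was nearly level. The fitted ratio in Tet2 was 2.06 ± 0.53 (adjusted p = 0.014), 4.17-fold, which was kept in 7 of the 10 fits with a pair left out and lost without Tet2 replicate 1, 3 or 4 (adjusted p = 0.058, 0.054 and 0.052). The Tet1 ratio of 2.49 ± 0.74 (adjusted p = 0.072) and the Tet2ΔRBD ratio of 1.58 ± 0.53 (adjusted p = 0.059) did not pass; without Tet2ΔRBD replicate 2 the latter was 2.12 and passed (adjusted p = 0.022), as it did without Tet2 replicate 2 (0.027), without replicate 1 it was 1.03 (adjusted p = 0.20), and without replicate 4, whose input stood apart, it was 1.92 (adjusted p = 0.060). Its relative Ccnl2 was at 30.1 to 48.5 TPM in input and did not pass in any line.

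Cdk13 (chr13:17807796-17896931, minus strand), a kinase of the polymerase, was at 9.36, 7.49, 4.5 and 4.42 TPM in the Tet2 IPs against 1.97, 2.48, 2.28 and 2.22 TPM in input, so that IP and input did not overlap. The ratio was 1.14 ± 0.28 (adjusted p = 0.010), 2.21-fold, in Tet2 and 0.98 ± 0.28 (adjusted p = 0.033) in Tet2ΔRBD. In Tet1 the IPs were at 7.28 and 6.89 TPM against 2.89 and 2.43 TPM, and the ratio of 1.28 ± 0.39 did not pass (adjusted p = 0.076). The Tet2ΔRBD call was lost without Tet1 replicate 2 (adjusted p = 0.052) and without Tet2ΔRBD replicate 1, 2 or 3 (adjusted p = 0.116, 0.068 and 0.088). Cdk12, the closest relative of Cdk13, was above input in all 10 pairs with fitted ratios of 0.29 ± 0.12, 0.24 ± 0.12 and 0.15 ± 0.18 in Tet2, Tet2ΔRBD and Tet1, and none passed.

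Ccnt1, the partner of Cdk9 in the elongation factor P-TEFb, was at 10.7, 9.72, 1.69 and 1.57 TPM in the Tet2 IPs against 2.93, 3.41, 0.99 and 1.32 TPM in input (0.83 ± 0.26, adjusted p = 0.032). The groups overlapped, and replicates 1 and 2 had larger pair ratios (1.57 and 1.28) than replicates 3 and 4 (0.43 and 0.15). The call was lost without Tet2 replicate 1, 2 or 3 (adjusted p = 0.14, 0.105 and 0.057) and without Tet1 replicate 1 (0.0503). In Tet2ΔRBD the ratio was -0.09 ± 0.26. The fitted ratio of Cdk9 itself was near 0 in all lines (-0.02, 0.01 and 0.05 in Tet2, Tet2ΔRBD and Tet1), as was that of Ccnt2 (0.02, 0.14 and 0.06). On log2(TPM + 1) the mean pair ratios were 0.29, 0.28 and 0.20 for Cdk9 and 0.32, 0.39 and 0.19 for Ccnt2.

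Ccnc, the cyclin of the Mediator kinases Cdk8 and Cdk19, was at 12.1, 13.2, 16.7 and 17.6 TPM in the Tet2 IPs against 19.97, 22.1, 26.5 and 27.3 TPM in input. In Tet2ΔRBD it was at 14.9, 10.9, 18.2 and 17.4 TPM against 19.5, 18.6, 29.4 and 33.5 TPM, so that IP and input did not overlap in either line. The ratios were -0.98 ± 0.11 (adjusted p = 2.7e-04) and -0.95 ± 0.11 (adjusted p = 7.3e-04), and each call was kept with any pair left out. In Tet1 the ratio was -0.33 ± 0.16 (adjusted p = 0.23), with both IPs below their inputs. Cdk8 and Cdk19 did not pass in any line. Ccnk, the partner of Cdk12 and Cdk13, was at -0.46 in Tet2 (± 0.13, adjusted p = 0.018) and -0.46 in Tet2ΔRBD (± 0.12, adjusted p = 0.028). Its Tet2 pair ratios were -0.47, 0.50, -0.20 and -0.38, replicate 2 running against the rest. The Tet2 call on Ccnk was lost without Tet2 replicate 1 (-0.28, adjusted p = 0.16), 3 or 4 (0.052 and 0.063), and the Tet2ΔRBD call without any 1 of its 4 replicates (0.053 to 0.092). Ccnh and Cdk7, which serve both the cell cycle and transcription, did not pass in any line.

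Of the other members, Ccng1 and Ccnf were higher in Tet2 IP, and Ccni, Ccndbp1, Ccnj and Ccny were lower. Ccng1, a target of p53 (chr11:40562054-40568813, minus strand), was at 145, 38.6, 64.4 and 62.3 TPM in the Tet2 IPs against 47.4, 17.2, 34.6 and 37.1 TPM in input, and at 181, 44.2, 77.5 and 74.3 TPM in the Tet2ΔRBD IPs against 54.0, 11.2, 40.0 and 64.7 TPM. Every IP was above its input, and IP and input overlapped because replicate 2 was low on both sides. The ratios were 0.79 ± 0.25 (adjusted p = 0.032) in Tet2, 0.94 ± 0.26 (adjusted p = 0.028) in Tet2ΔRBD and 1.07 ± 0.35 (adjusted p = 0.098) in Tet1. The Tet2 call was lost without any 1 of the 4 Tet2 replicates (adjusted p = 0.056 to 0.110) and the Tet2ΔRBD call without Tet2ΔRBD replicate 1, 2 or 3 (adjusted p = 0.054 to 0.097). Its relative Ccng2 did not pass, with ratios of 0.01, -0.03 and -0.07 in Tet2, Tet2ΔRBD and Tet1.

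Ccnf, the F-box cyclin that marks proteins for destruction, had Tet2 pair ratios of 0.75, 0.77, 0.77 and 0.65 and a fitted ratio of 0.42 ± 0.13 (adjusted p = 0.031), a call lost without any 1 of the 4 Tet2 replicates or either Tet1 replicate (adjusted p = 0.051 to 0.128). Ccni, an atypical cyclin, was at 103 and 96.6 TPM in the Tet1 IPs against 153 and 153 TPM in input, and at 105, 111, 112 and 112 TPM in the Tet2 IPs against 191, 134, 154 and 145 TPM. In Tet2ΔRBD its IPs were at 87.4, 59.9, 92.5 and 91.3 TPM against 151, 114, 124 and 119 TPM. IP and input of Ccni did not overlap in any line, and its ratios were -0.76 ± 0.19 (adjusted p = 0.041), -0.81 ± 0.13 (adjusted p = 0.0015) and -0.91 ± 0.13 (adjusted p = 0.0017) in Tet1, Tet2 and Tet2ΔRBD. The Tet1 call was lost without either Tet1 replicate (adjusted p = 0.32 and 0.59), without replicate 3 or 4 of Tet2 (0.066 and 0.054) and without replicate 3 of Tet2ΔRBD (0.068). Ccndbp1 was at 16.7 to 22.7 TPM in the Tet2 IPs and 21.2 to 26.3 TPM in input, with ratios of -0.59 ± 0.09 in Tet2 (adjusted p = 0.0012) and -0.40 ± 0.09 in Tet2ΔRBD (adjusted p = 0.014), the second call lost without Tet2ΔRBD replicate 1 or 3 (0.078 and 0.077). The ratios of Ccnj (-0.43 ± 0.12, adjusted p = 0.018) and Ccny (-0.34 ± 0.09, adjusted p = 0.019), a membrane-bound cyclin, were -0.09 and -0.02 on log2(TPM + 1), and both calls were lost without Tet2 replicate 1 (adjusted p = 0.124 and 0.148), that of Ccnj also without replicate 4 (0.071) and that of Ccny without replicate 3 (0.071).

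**Figure D4:**
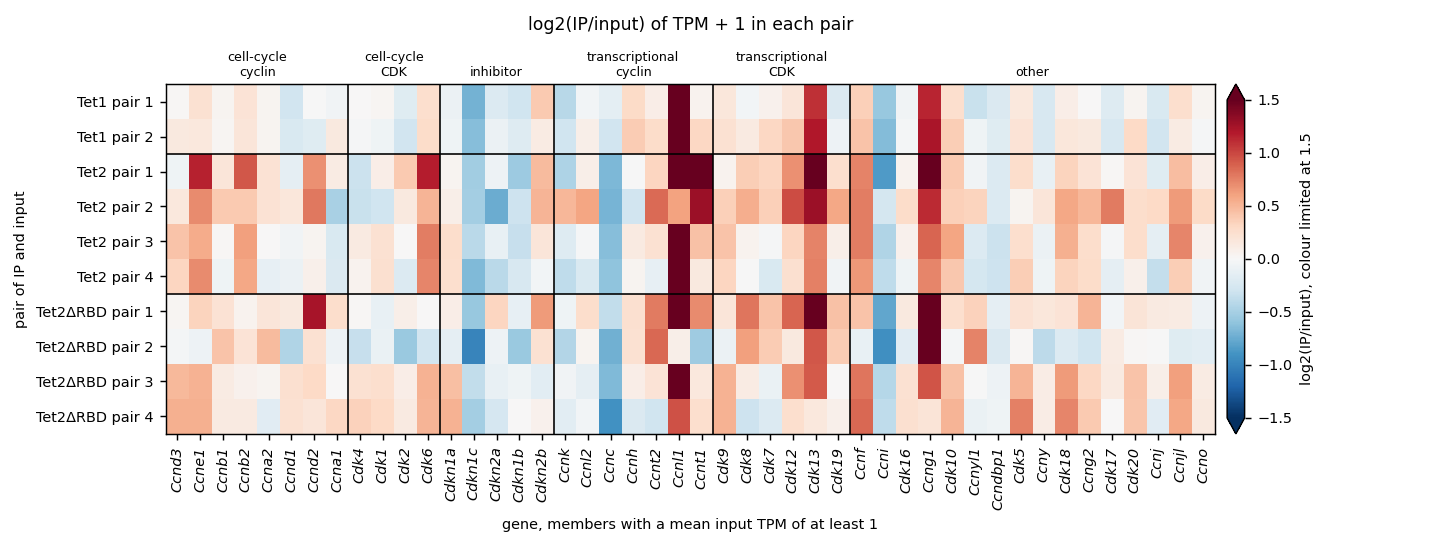
log2(IP/input) of TPM + 1 in each of the 10 pairs (rows) for the 46 members with a mean input of at least 1 TPM (columns, by class); red is above input, blue below, and the colour is limited at 1.5. Columns for Ccnl1, Cdk13 and Ccng1 are red and those for Cdkn1c, Ccni and Ccnc blue throughout, and most other columns change sign between pairs.

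The study's own reading of a target, a TPM + 1 above input, was applied to every pair of a line. In Tet1, 23 of the 51 members were above input in both pairs (33.5% of all genes), in Tet2 18 were above in all 4 pairs (28.6%) and in Tet2ΔRBD 11 were (19.9%). Among genes with a mean input of at least 1 TPM, the members' shares were 47.8% in Tet1 against 50.5% of all genes, 39.1% in Tet2 against 47% and 21.7% in Tet2ΔRBD against 31%. Over all 51 members, whether expressed or not, the shares were 45.1%, 35.3% and 21.6%, above the background of all genes, and among the expressed genes they were below it. Below input in every pair of the line were 17 of the 46 members in Tet1 (32.3% of all genes at that level), 6 in Tet2 (13.4%) and 5 in Tet2ΔRBD (9.57%). The 7 members above input in all 10 pairs were Ccnb2, Ccng1, Ccnl1, Cdk5, Cdk12, Cdk13 and Cdk20. Ccnc, Ccndbp1, Ccni and Cdkn1c were below input in all 10 pairs. Of all genes at 1 TPM or more, 22.7% were above input in all 10 pairs and 6.48% below.

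A requirement of 1.5 times the input in every pair left 4 members in Tet1 (5.42% of all genes), 4 in Tet2 (3.5%) and 1 in Tet2ΔRBD (0.773%). When each pair was centred on the median of genes at 1 TPM or more, 19 members in Tet1 (25.9% of all genes), 11 in Tet2 (15.1%) and 5 in Tet2ΔRBD (10.7%) were above it in every pair. The backgrounds in this paragraph count all genes, expressed or not. Shares among expressed genes alone were not computed for these rules, so that the counts are no result about the members. In Tet2ΔRBD the count of 11 rose to 26 without replicate 2, in which 19 of the 46 members were above input, against 32 to 36 in the other 3 pairs.

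The dependence on the RNA-binding domain was taken as the IP ratio of Tet2 minus that of Tet2ΔRBD. With edgeR, 0 of 49 members passed, as did 0.0219% of all genes, and DESeq2 and limma called 0 members as well. At an unadjusted p under 0.05 there were 4 members (background 3.03% of all genes), each with the higher ratio in Tet2: Ccnt1 (difference 0.92 ± 0.37, log2, SE), Cdk6 (0.65 ± 0.24), Ccnb2 (0.48 ± 0.17) and Ccne1 (0.41 ± 0.17), all at an adjusted p of 1.00. With replicates 3 and 4 of the 2 lines alone, a set chosen after the data had been seen, Ccnb2 was the single member called (91 of 13379 genes). A value that misses the threshold does not show that the lines act alike. Between Tet1 and Tet2, 0 members and 0% of all genes passed with edgeR, DESeq2 and limma called 0 members, and 3 members had an unadjusted p under 0.05 (background 3.77% of all genes), each with the higher ratio in Tet1: Ccne2 (2.22 ± 0.91), Ccnh (0.55 ± 0.24) and Ccnc (0.65 ± 0.19), all at an adjusted p of 0.94.

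The cell-cycle and transcriptional classes were compared by the median log2(IP/input) of their members with a mean input of at least 1 TPM, 12 and 13 genes. In Tet1 the cell-cycle medians were 0.02 and 0.04 and the transcriptional medians 0.06 and 0.27. In Tet2 the cell-cycle medians were 0.20, 0.19, 0.09 and 0.06 and the transcriptional medians 0.32, 0.58, 0.14 and -0.01, and in Tet2ΔRBD they were 0.12, -0.08, 0.24 and 0.27 against 0.44, 0.15, 0.12 and -0.04. The cell-cycle median was below the transcriptional one in both Tet1 pairs, in pairs 1 to 3 of Tet2 and in pairs 1 and 2 of Tet2ΔRBD, and above it in the other 3 pairs. The difference averaged -0.14 ± 0.14 (SD, n = 2) in Tet1, -0.12 ± 0.20 (n = 4) in Tet2 and -0.03 ± 0.29 (n = 4) in Tet2ΔRBD, so that in each line it was no larger than the spread between pairs. In Tet2ΔRBD it was 0.06 without replicate 1, on the other side of 0. At a mean input of at least 5 TPM it also turned, to 0.05 in Tet2 and 0.04 in Tet2ΔRBD, and was -0.11 in Tet1.

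**Figure D5:**
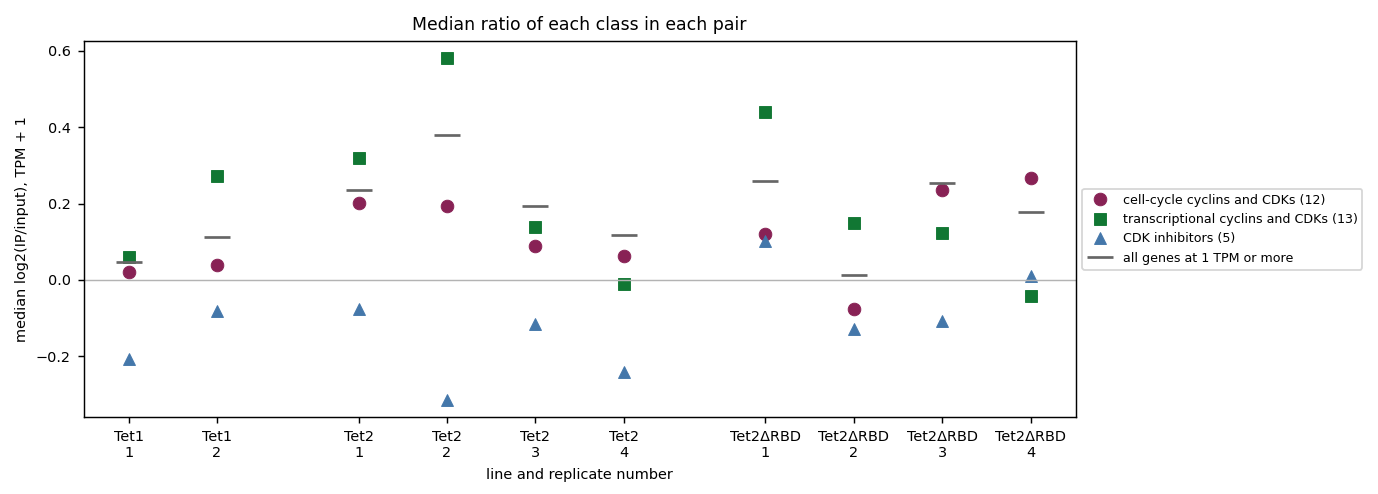
Median log2(IP/input) of TPM + 1 in each pair for the cell-cycle genes (12), the transcriptional genes (13), the inhibitors (5) and all genes with a mean input of at least 1 TPM (dashes); the x axis gives the line and replicate number. The cell-cycle and transcriptional medians cross between pairs. The inhibitor median lies below that of all genes in 10 of the 10 pairs and the cell-cycle median in 9.

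The spread within each class was larger than the difference between the classes. In Tet2 the fitted ratios ran from -0.80 to 1.01 over the 13 cell-cycle genes tested, 2 higher and 3 lower in IP, and from -0.98 to 2.06 over the 13 transcriptional genes, 3 higher and 2 lower. The inhibitors had pair medians from -0.32 to -0.08 in Tet2, from -0.21 to -0.08 in Tet1 and from -0.13 to 0.10 in Tet2ΔRBD. The median of the inhibitors was below that of all genes in 10 of the 10 pairs, but so were those of the cell-cycle genes in 9, of the other members in 8 and of the transcriptional genes in 4. The median of all genes itself ran from 0.01 to 0.38.

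Of 40 further genes of the pathway, chosen with earlier results of these data known, all were tested. In Tet2, 9 were higher and 5 lower in IP, in Tet2ΔRBD 4 and 4, and in Tet1 3 and 1, read against the backgrounds given for all genes. Of the 6 genes of cyclin and inhibitor proteolysis, 5 were higher in Tet2 (background 14.6%) and 1 lower (background 18.5%). In Tet2ΔRBD 2 of them were higher (7.4%) and 1 lower (12.1%), and in Tet1 2 (2.72%) and 1 (3.18%). For Tet2 minus Tet2ΔRBD 0 of them passed. Among those called, the 3 with the largest ratios in Tet2 were Ttk, a mitotic checkpoint kinase (1.95 ± 0.49, adjusted p = 0.012), Wee1, which inhibits Cdk1 by phosphorylation (1.90 ± 0.25, adjusted p = 4.6e-04), and Fbxo5, an inhibitor of the anaphase-promoting complex (1.5 ± 0.27, adjusted p = 0.0027). Among those called in Tet2ΔRBD the 3 were Ttk (1.71 ± 0.48, adjusted p = 0.032), Fbxo5 (1.21 ± 0.28, adjusted p = 0.014) and Fbxw7, which targets cyclin E for destruction (1.11 ± 0.14, adjusted p = 8.8e-04), and in Tet1 Fbxo5 (2.37 ± 0.40, adjusted p = 0.019), the checkpoint kinase Bub1 (1.73 ± 0.42, adjusted p = 0.040) and Fbxw7 (0.91 ± 0.20, adjusted p = 0.030), while Ttk, at 2.48 ± 0.67, did not pass in Tet1 (adjusted p = 0.054). Every Tet1 call was lost without either Tet1 replicate, that of Bub1 also without Tet2 replicate 3 or 4 or Tet2ΔRBD replicate 3 and that of Fbxw7 without Tet2 replicate 4. In Tet2ΔRBD the call on Ttk was lost without Tet1 replicate 2 or Tet2ΔRBD replicate 1 or 3 (adjusted p = 0.052, 0.107 and 0.117) and that on Fbxo5 without Tet2ΔRBD replicate 1 or 3 (0.058 and 0.067). Of the 13 genes for Rb and E2F proteins, 0 were higher in any line, while 2 were lower in Tet2, 1 in Tet2ΔRBD and 0 in Tet1.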

How the data were processed

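PolyA RNA of 10 IP and 10 input libraries was analysed. Reads had been filtered against rRNA and tRNA with Bowtie2, trimmed with Trimmomatic and quantified on mm9 and the RefSeq transcriptome with RSEM, per the study's methods; versions are not given in the sources used here. The authors deposited unnormalized expected counts per gene, TPM with a pseudocount of 1 and effective lengths; TPM here is the deposited value minus 1. The FPKM column was not used. Samples were grouped and numbered by their labels.

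Expected counts were rounded, filtered (1 CPM in 2 libraries), TMM-normalized and fitted with edgeR 4.0.16 (R 4.3.3, quasi-likelihood test) over the 20 libraries; the design held 1 block per pair and 1 IP effect per line, with Benjamini-Hochberg adjustment over all genes tested. The SE was computed as the log2 ratio over the root of the F statistic. Inputs were compared in a fit of the 10 inputs. Alternatives were DESeq2 1.42.0, limma 3.58.1 on TPM with a pseudocount of 1 or 0.1 (log2 scale), no filter and no block. Others were only the lines compared, replicates 3 and 4 merged, and each pair left out. A fit on replicates 3 and 4 of Tet2 and Tet2ΔRBD alone, with both Tet1 pairs kept, was added after seeing the data. The fits were also run on simulated counts in which some genes had large changes in the Tet2 IPs. Those counts held no near-identical replicates and no small changes, so that they do not bear on how stable the calls are. IP and input of the same number deviated together (lowest correlation 0.61 in Tet2, 0.58 in Tet2ΔRBD and 0.18 in Tet1). Replicates 3 and 4 were not told apart by this: IP 4 followed input 3 more closely than its own input. The correlations were 0.78 against 0.76 in Tet2 and 0.69 against 0.58 in Tet2ΔRBD, while IP 3 followed its own input more closely. With Tet2ΔRBD IP 4 set against input 3, 16 members were above input in every pair, against 11 as labelled. Replicates 3 and 4 differed by 2.79 to 17.1 times the counting noise, which technical repeats may also exceed, and were kept apart as the labels number them.

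The members and lists were chosen with earlier results of these data known. Members past an adjusted p of 0.05 in any line and a fixed set of main cyclins, CDKs and inhibitors were described. Values in every pair were given for many of them, and for the others a range, a mean or the fitted ratio. Of the pathway list the 3 called genes with the largest ratio in each line were named. The members above or below input in all 10 pairs, Ccnb2, Cdk12 and the relatives of called genes were named after their values were seen. Libraries held 21078995 to 37576638 expected counts, reads without molecular identifiers.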

Additional observations from a re-analysis of the deposited data

Results flagged for a closer look

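Over 56 groups of 4 pairs (28 members in Tet2 and Tet2ΔRBD), 5 pair ratios lay far from the other 3 by Dixon's test, and no cause was tested. The test's chance rate of about 1 in 20 groups holds for 4 independent values. Replicates 3 and 4 were nearly identical and the members share their libraries, so that this rate does not apply here. In Tet2ΔRBD pair 2 the log2(IP/input) of Ccnd1 was -0.46 against 0.15 to 0.24 in the other pairs, that of Ccny -0.39 against 0.11 to 0.17 and that of Cdk2 -0.56 against 0.09 to 0.13. In Tet2 pair 2 the ratio of Ccny was 0.19 against -0.11 to -0.07. In Tet2ΔRBD pair 1 the ratio of Ccnd2 was 1.24 against 0.18 to 0.29.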

How the results depend on the processing

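With 2 pairs in Tet1 and near-identical replicates 3 and 4 in the other lines, counts of called members moved with the fit, and the cause was not tested. The main fit gave 3 in Tet1, 19 in Tet2 and 10 in Tet2ΔRBD (809, 4540 and 2674 of 13710 genes). Without the replicate block that pairs IP with input they were 0, 3 and 1 (0, 375 and 46 genes). Merging replicates 3 and 4 gave 1, 8 and 6 (318, 3190 and 1060 of 13610 genes). Another fit, added after seeing the data, held replicates 3 and 4 of Tet2 and Tet2ΔRBD and both Tet1 pairs. It gave 24, 30 and 28 (6260, 6670 and 6568 of 13379 genes). With the compared line alone they were 24 in Tet1 (6985 of 12691 genes), with Ccnl1, Cdk13 and Ccng1 among them, and 3 in Tet2ΔRBD (748 of 13260). DESeq2 gave 6 in Tet1 (1578 genes) and limma on log2(TPM + 0.1) 1 (332 genes). Calls over all genes rose and fell with these counts, which are no result about the members. Leaving out each pair gave 0 to 5 in Tet1 (0 without either Tet1 replicate, 1 without Tet2 replicate 3 or 4 or Tet2ΔRBD replicate 3, 5 without Tet2 replicate 2 or Tet2ΔRBD replicate 1, 2 or 4), 7 to 21 in Tet2 (7, 10 and 12 without Tet2 replicate 1, 3 and 4) and 3 to 10 in Tet2ΔRBD (4 and 3 without Tet2ΔRBD replicate 1 and 3). Differences between lines stayed at 0 members with any pair left out. With replicates 3 and 4 of Tet2 and Tet2ΔRBD, 1 member (Ccnb2) and 91 of 13379 genes were called for Tet2 minus Tet2ΔRBD. Adding a replicate block across the inputs of the lines left 0 members called, with 2 at an unadjusted p under 0.05.

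Members above input in every pair numbered 4, 4 and 1 in Tet1, Tet2 and Tet2ΔRBD at 1.5 times the input, 36 in Tet2 and 40 in Tet2ΔRBD when group means were compared without the block, 11 and 5 when centred on the median ratio, and 6 in Tet2ΔRBD at a mean input of at least 5 TPM. With a pair left out they were 27 to 28, 19 to 27 and 12 to 26. The class difference was -0.30 in Tet1 with means in place of medians, it turned to 0.05 in Tet2 and 0.04 in Tet2ΔRBD at a mean input of at least 5 TPM, and with a pair left out -0.23 to -0.04 in Tet1, -0.19 to -0.03 in Tet2 and -0.14 to 0.06 in Tet2ΔRBD. With replicates 3 and 4 alone, 4 ratios not called before were called on the other side of 0: Cdk9 in Tet2 (0.17) and Ccnd3 (0.23), Cdk6 (0.29) and Cdkn1a (0.21) in Tet2ΔRBD. Over 1508 comparisons for the named members, 1262 kept direction and call, 177 lost the call, 65 gained it and 4 turned; a ratio called under neither setting counts as kept.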
